A study of Mus musculus with 4 samples.

Results

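The genes of the major histocompatibility complex (MHC) were examined in bone marrow cells sorted as lineage-negative, cKit-positive and Sca1-positive (LSK), the fraction of mouse marrow that holds stem cells and multipotent progenitors. Members were all genes whose symbol in the array annotation began with H2-, the mouse MHC prefix, together with Cd74, B2m and Ciita. Of the 18193 genes that had a probe set of their own, 26 were members, and 11 more H2 genes were named only by probe sets shared with other genes. The 26 comprised 2 classical and 11 nonclassical class I genes, 3 classical class II genes (H2-Aa, H2-Ab1 and H2-Eb1) with the pseudogene H2-Ea, 5 nonclassical class II genes, B2m, Cd74, Ciita, and H2-Ke6, which encodes a steroid dehydrogenase and carries the prefix by its position.

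Array intensities were compared between WT mice, of genotype Ncstn flox/flox, and Ncstn KO littermates, of genotype Ncstn flox/flox Mx1-cre+. Ncstn encodes nicastrin, a subunit of gamma-secretase, and Mx1-cre is a recombinase transgene under an interferon-responsive promoter, which acts in many cell types besides blood cells. Mice of both groups carried the floxed alleles and received polyIC, an interferon inducer, at 20 µg per g of body weight in 3 injections from 14 days of age, and their marrow was taken at 6 weeks of age, 4 weeks after induction. There were 2 arrays per genotype, WT replicate 1 from a male and replicate 2 from a female, and Ncstn KO replicate 1 from a female and replicate 2 from a male, so every array is named below by genotype and sex. The labels give no strain and so no MHC haplotype.

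Class I molecules pair a heavy chain, encoded by H2-K1, H2-D1 or a nonclassical gene, with beta-2-microglobulin (B2m) and show peptides from inside the cell; they are made by most cells and are raised by interferons. Class II molecules pair an alpha with a beta chain, are loaded in endosomes with the help of the invariant chain Cd74 and of the DM and DO proteins, and are held mainly by dendritic cells, macrophages and B cells. Ciita is the transactivator on which class II transcription depends.

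Promoter sequence is shown for 5 members because class II genes with Cd74, class I genes and H2-M3 followed different patterns over the arrays. The RefSeq table for GRCm38.p6 held promoters for 17 of the 26 members. The 250 bases before each gene's start were searched on both strands for CCAAT, the core of the CCAAT box bound by the factor NF-Y, for GAAA repeated after any 2 bases, a core of interferon response elements, and for CAACNGATG, letters found in the X box of class II promoters. All matches are in capitals, and no letters were shared between different motifs in the stretches shown. The stretches lie at chr17:34287824-34288073 on the minus strand for H2-Aa, and on the plus strand at chr17:34305617-34305866 for H2-Eb1, chr17:35262844-35263093 for H2-D1, chr2:122147437-122147686 for B2m and chr17:37269984-37270233 for H2-M3, written 5′ to 3′.
H2-Aa: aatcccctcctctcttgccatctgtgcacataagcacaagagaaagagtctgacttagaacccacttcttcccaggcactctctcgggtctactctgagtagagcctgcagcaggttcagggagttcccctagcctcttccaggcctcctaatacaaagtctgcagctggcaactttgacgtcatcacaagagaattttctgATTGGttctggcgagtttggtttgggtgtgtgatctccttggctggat
H2-Eb1: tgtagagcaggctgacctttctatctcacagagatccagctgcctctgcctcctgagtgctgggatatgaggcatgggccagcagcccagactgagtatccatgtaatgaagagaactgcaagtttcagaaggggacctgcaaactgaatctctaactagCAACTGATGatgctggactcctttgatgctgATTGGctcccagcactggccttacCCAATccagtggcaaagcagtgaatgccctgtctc
H2-D1: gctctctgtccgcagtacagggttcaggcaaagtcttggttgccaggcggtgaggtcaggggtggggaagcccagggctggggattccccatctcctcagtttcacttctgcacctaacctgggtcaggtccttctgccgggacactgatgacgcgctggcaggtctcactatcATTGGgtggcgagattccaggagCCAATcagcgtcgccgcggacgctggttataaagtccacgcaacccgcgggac
B2m: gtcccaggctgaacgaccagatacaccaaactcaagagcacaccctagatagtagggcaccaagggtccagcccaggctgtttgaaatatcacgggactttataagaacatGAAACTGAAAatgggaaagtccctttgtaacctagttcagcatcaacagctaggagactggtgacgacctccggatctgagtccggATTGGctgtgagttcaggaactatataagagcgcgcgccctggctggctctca
H2-M3: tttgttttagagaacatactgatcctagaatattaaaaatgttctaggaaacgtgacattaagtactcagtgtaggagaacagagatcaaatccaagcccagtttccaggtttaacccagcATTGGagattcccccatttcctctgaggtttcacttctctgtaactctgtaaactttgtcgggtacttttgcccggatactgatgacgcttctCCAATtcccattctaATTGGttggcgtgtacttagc
CCAAT occurred in 15 of the 17 members' promoters (17 of 20 stretches, as some genes have more than 1 start) and in 33.8% of all 32851 stretches of this length in the table. CAACNGATG occurred in the stretches of H2-Eb1 and H2-Eb2 and in 0.46% of all stretches, and the repeated GAAA in that of B2m and in 2.98% of all. A match describes the letters and does not show that a factor binds there. Only these exact letters were searched, so the lack of a match does not show that an element is absent.

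Intensities are given as log2, on a scale where the median gene had a mean of 8.04, and members at or above that value are called brighter members (14 of 26). Differences between probe sets reflect their probes as well as transcript levels, so changes were taken within a probe set, and a position above or below the median gene describes signal only, not transcript number. The labels were checked on 5 genes. The targeted gene, Ncstn, read 9.05 and 8.98 in WT against 7.58 and 7.91 in Ncstn KO, with a change of -1.27 that did not pass (limma adjusted p = 0.257), and Xist, Eif2s3y, Kdm5d and Uty separated the arrays by their labelled sex. The median intensity over all probe sets was 71.6 to 79.2 per array. Among LSK markers Kit read 11.57 to 11.94, Cd34 12.77 to 12.81 and Flt3 12.36 to 12.66, all above the median gene. Slamf1, a marker of stem cells within this fraction, was also above it but read 10.44 and 9.64 in WT against 11.07 and 10.68 in Ncstn KO, a change of 0.83 (SE 0.28, limma adjusted p = 0.633) with separate groups. In bulk RNA, fewer cells of a type and less RNA per cell cannot be told apart.

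No member differed between Ncstn KO and WT in the limma test across all genes. At an adjusted p under 0.05 it called 0 of 18193 genes (0.0%), and 2 members had an unadjusted p under 0.05, H2-DMb2 above WT and H2-T24 below, against 902 genes above (4.96%) and 335 below (1.84%) among all genes. None of the 26 members (0) had both a change of at least 2-fold and separate arrays, where 1.71% of all genes did (1.19% higher and 0.517% lower). Both Ncstn KO arrays lay above both WT arrays for 8 members (30.8%, against 21.3% of all genes) and below them for 1 (3.85%, against 12.8%). The median change was 0.14 over the members and 0.02 over all genes. The smallest p that exact permutation (two-sided) allows for any one gene in this design is 0.333.

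The classical class I genes were bright and nearly level on all arrays in the probe sets that represent them. H2-K1, a heavy chain gene, read 13.18 on the WT male, 13.11 on the WT female, 13.18 on the Ncstn KO female and 13.24 on the Ncstn KO male. The change was 0.07 (SE 0.06, limma adjusted p = 0.958). H2-D1, the other classical heavy chain gene here, read 13.08, 13.05, 13.19 and 13.17 in the same order, a change of 0.12 (SE 0.06, adjusted p = 0.827). Both Ncstn KO arrays were higher than both WT arrays for each gene, by under 0.2. B2m, the light chain that all class I molecules need, read 13.68, 13.60, 13.61 and 13.64 in that order, with overlapping groups and a change of -0.01 (SE 0.05, adjusted p = 1). All H2-K1 and most H2-D1 probe sets carry the suffix that marks probes shared with similar sequences. These include the probe sets that represent both genes, so these heavy chain values are uncertain in their gene. The 9 H2-D1 probe sets gave changes of -0.13 to 0.45 and the 4 H2-K1 probe sets 0.05 to 0.13. The H2-D1 probe set with 0.45 (SE 0.21), the only one above the median gene without that suffix, was less level. It read 11.11 on the WT male, 11.10 on the WT female, 11.24 on the Ncstn KO female and 11.87 on the Ncstn KO male.

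Among the nonclassical class I genes, H2-T24 had the lowest change by genotype and H2-M3 the lowest difference by sex of all 26 members. H2-T24, a nonclassical heavy chain gene of the T region, read 9.61 on the WT male and 9.85 on the WT female against 9.33 on the Ncstn KO female and 8.86 on the Ncstn KO male. Both Ncstn KO arrays were the lower pair, with a change of -0.63 (SE 0.22), or 1.55-fold, that did not pass (limma adjusted p = 0.65). The change was -0.52 between the females and -0.75 between the males. H2-M3, whose product presents N-formylated peptides of bacteria and mitochondria, read 10.85 on the WT male and 10.51 on the Ncstn KO male, but 9.38 and 9.005 on the WT and Ncstn KO females. Its groups by genotype overlapped, with a change of -0.36 (SE 0.62, adjusted p = 0.988), while the sexes did not overlap in either genotype.

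The 9 nonclassical class I genes below the median level were H2-Q2, H2-Q5, H2-Q10, H2-T3, H2-T18, H2-M9, H2-M10.1, H2-Bl and H2-D4. Together with H2-Ea, H2-Eb2 and Ciita they made up the 12 dimmer members, which read 2.12 to 8.10. At such levels the signal over background was not assessed and a difference carries an unknown error. No dimmer member reached 2-fold with separate arrays by genotype, and the largest change among them was 0.42 (SE 0.27) for H2-Q10, a class I gene known mainly from liver. By sex, both females were above both males for 6 of the 12 (50.0%, against 29.0% of all genes) and below for 0. H2-Q5, annotated as a pseudogene, read 7.24 on the WT male and 6.85 on the Ncstn KO male against 7.67 and 8.10 on the WT and Ncstn KO females, a difference of 0.84 (SE 0.28, limma adjusted p = 0.574). H2-Ea, the class II alpha chain gene that is a pseudogene in the reference strain, stayed at 4.00 to 4.66 in its highest probe set.

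**Figure D1:**
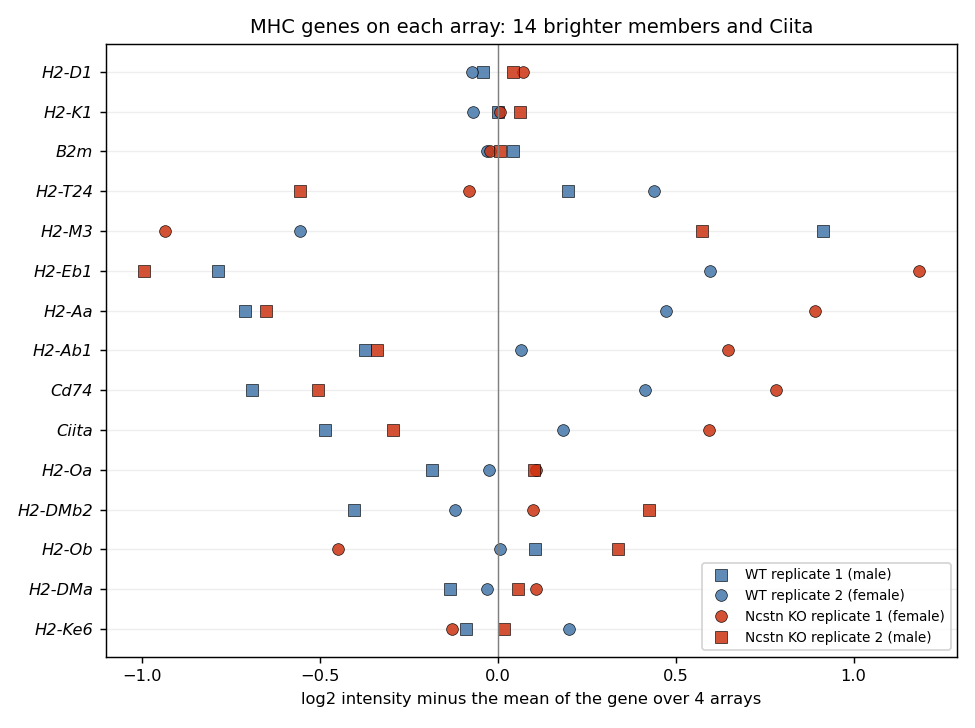
Each row shows 1 gene and each symbol 1 array, as log2 intensity minus the mean of that gene over the 4 arrays; colour gives genotype and shape gives sex, and rows run from class I at the top to class II and H2-Ke6 below. The arrays of females stand to the right for H2-Eb1, H2-Aa, H2-Ab1, Cd74 and Ciita and to the left for H2-M3, while H2-K1, H2-D1 and B2m hardly spread.

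Class I genes of the Q and T regions were measured mostly through shared probe sets, which were tested in an added fit over all 45037 probe sets that were not controls. That fit also called 0 probe sets, so none of the differences that follow passed. Of the 12 shared class I probe sets, 7 (58.3%) had both Ncstn KO arrays above both WT arrays and 0 had them below, against 18.5% above among all probe sets, and their median change was 0.34 against 0.01. These probe sets name overlapping genes and are not independent of each other. Some of the 7 barely separated. For H2-K1 with H2-D1 the Ncstn KO male read 10.2611 against 10.2608 on the WT female. For H2-T3 with H2-T18 the same arrays read 3.8748 and 3.8728. That probe set and the one of H2-Q5 with H2-K1 had means of 3.82 and 3.62, far below the median gene.

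Genes of the Qa-2 family, nonclassical molecules encoded by H2-Q6 to H2-Q9, had separate arrays. The probe set of H2-Q6 and H2-Q8 read 11.33 on the WT male and 11.23 on the WT female against 11.88 on the Ncstn KO female and 11.96 on the Ncstn KO male. The change was 0.64 (SE 0.09, unadjusted p = 0.000677, limma adjusted p = 0.674), with almost the same size in females (0.65) and males (0.64). The probe set of H2-Q7 and H2-Q9 read 11.37 and 11.46 against 11.84 and 11.78, a change of 0.40 (SE 0.09, adjusted p = 0.819). A probe set that adds H2-Q4 to H2-Q6 and H2-Q8 also had separate groups, with a change of 0.46 (SE 0.20, adjusted p = 0.967), although the WT arrays differed from each other by 0.56.

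The shared probe sets of the T region differed among themselves. H2-T23 encodes Qa-1, a ligand of inhibitory receptors on natural killer cells, and shares both of its probe sets with H2-T-ps. The dimmer read 8.88 and 9.37 in the WT male and female against 10.21 and 9.78 in the Ncstn KO female and male, a change of 0.87 (SE 0.25, adjusted p = 0.894). The brighter read 11.65 and 11.14 against 11.38 and 11.68 in the same order, with overlapping genotypes and a change of 0.14 (SE 0.20, adjusted p = 1). For H2-T9, H2-T10 and H2-T22, the last 2 of which encode ligands of some gamma-delta T cells, the brighter probe set changed by 0.31 (SE 0.17) and the dimmer by 0.32 (SE 0.42), both with overlapping groups. A probe set naming H2-Bl with 2 uncharacterised loci read 4.47 on the WT male and 7.28, 7.63 and 7.23 on the WT female, Ncstn KO female and Ncstn KO male. Its change of 1.55 (SE 0.89, adjusted p = 0.978) rested on the WT male array alone, since without WT replicate 1 the other 3 values overlapped.

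**Figure D2:**
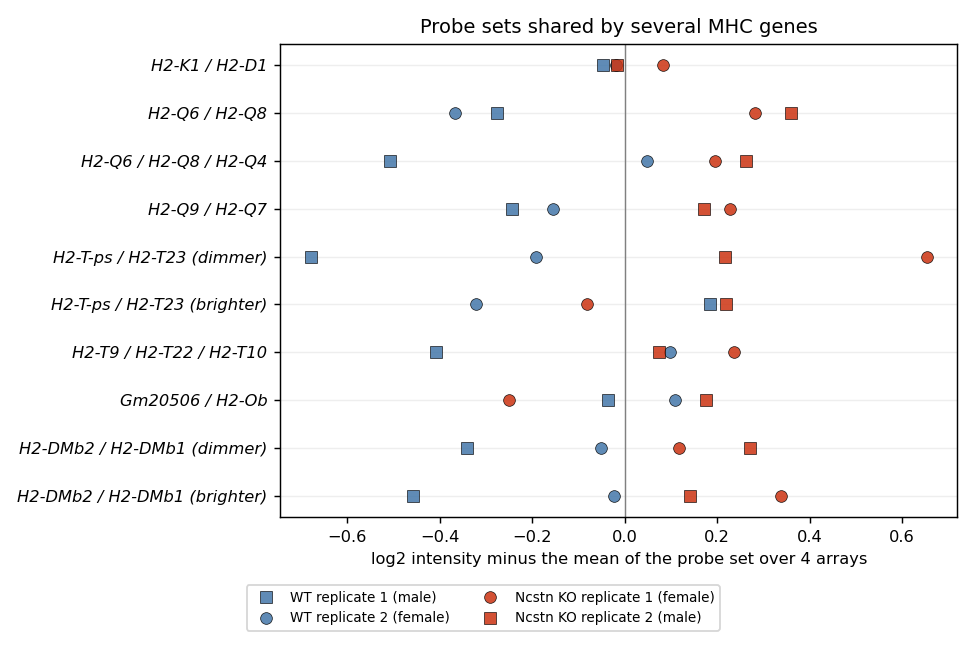
Rows are the 10 brighter probe sets that name several genes, at least 1 of them an MHC gene; symbols give log2 intensity minus the mean of that probe set over the 4 arrays, with colour for genotype and shape for sex. The 2 Ncstn KO arrays stand to the right of both WT arrays for the H2-Q and H2-DMb probe sets and for the dimmer H2-T23 probe set, and the genotypes overlap for H2-Ob, for the brighter H2-T23 probe set and for H2-T9, H2-T22 and H2-T10.

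The classical class II genes and Cd74 had larger differences by sex than by genotype. H2-Eb1, the E beta chain gene, read 10.04 on the WT male and 9.83 on the Ncstn KO male against 11.42 on the WT female and 12.01 on the Ncstn KO female. H2-Aa, the A alpha chain gene, read 10.19 and 10.25 on those males against 11.37 and 11.79 on the females. H2-Ab1, its beta chain partner, read 10.88 and 10.91 on the males against 11.32 and 11.90 on the females. In each gene both females were above both males, and the Ncstn KO female was the highest array.

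Cd74, the invariant chain, read 11.59 on the WT male and 11.78 on the Ncstn KO male against 12.70 on the WT female and 13.06 on the Ncstn KO female. Ciita, a dimmer gene, had the same order of arrays as Cd74 in its highest probe set. There it read 6.24 and 6.43 on the males and 6.91 and 7.32 on the females. Its other probe sets, dimmer still, had other orders. They changed by 0.21 (SE 0.29) and -0.31 (SE 0.30) by genotype, and by 0.51 and -0.42 between the females. Cd74 and Ciita lie on other chromosomes than the H2 cluster, and like the class II chains they were higher on both arrays of females. All 12 probe sets that name 1 of these 5 genes placed both females above both males. All H2-Aa and most H2-Ab1 probe sets carry suffixes that mark probes shared with other sequences. Their values are therefore uncertain in their gene, like those of class I, and the dimmest H2-Aa probe set read only 3.08 to 4.36. Probe sets of a gene measure the same RNA and add no replicates.

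Females minus males gave log2 differences of 1.78 (SE 0.21) for H2-Eb1, 1.36 (SE 0.13) for H2-Aa, 1.20 (SE 0.07) for Cd74, 0.78 (SE 0.22) for Ciita and 0.71 (SE 0.16) for H2-Ab1. These are 3.43-fold, 2.57-fold, 2.29-fold, 1.72-fold and 1.64-fold. None passed in the fit with genotype and sex (limma adjusted p = 0.574, 0.352, 0.107, 0.574 and 0.574 in that order), which called 4 of 18193 genes (0.022%), and 5 probe sets when run over all probe sets (0.0111%). At an unadjusted p under 0.05, 6 members were higher in females (against 5.53% of all genes) and 1 was lower (against 3.05%). By unadjusted p Cd74 stood at rank 6, H2-M3 at rank 8, H2-Aa at rank 11 and H2-Eb1 at rank 18 of all genes. H2-M3 was 2.81-fold lower in females, by -1.49 (SE 0.13, adjusted p = 0.352).

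Cd74 did pass after other scalings, with adjusted p = 0.000146 when each array was centred on its median, 0.0179 after a repeated quantile normalization and 0.00524 after scaling to the hybridization controls. H2-Eb1 (adjusted p = 0.000279), H2-Aa (0.000614) and H2-M3 (0.00223) passed after centring on the median only, among the scalings tried. That centring raised the count of genes called over the whole array from 4 to 58. In size, the differences of these 4 genes stayed within 0.1 of the values above under every scaling.

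At least 2-fold differences with separate sexes were found for 4 of the 26 members (15.4%), H2-Eb1, H2-Aa and Cd74 higher and H2-M3 lower in females, against 1.01% of all genes (0.5% higher and 0.511% lower). Each held in both genotypes. Female minus male in WT and in Ncstn KO was 1.11 and 1.29 for Cd74, 1.18 and 1.54 for H2-Aa, 1.38 and 2.18 for H2-Eb1, and -1.47 and -1.51 for H2-M3. Each of these differences sets 1 mouse against 1 mouse, so a difference between the sexes and a difference between individual mice of the 2 sexes cannot be told apart. With 4 arrays no fit can test whether the sex difference itself differs by genotype.

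**Figure D3:**
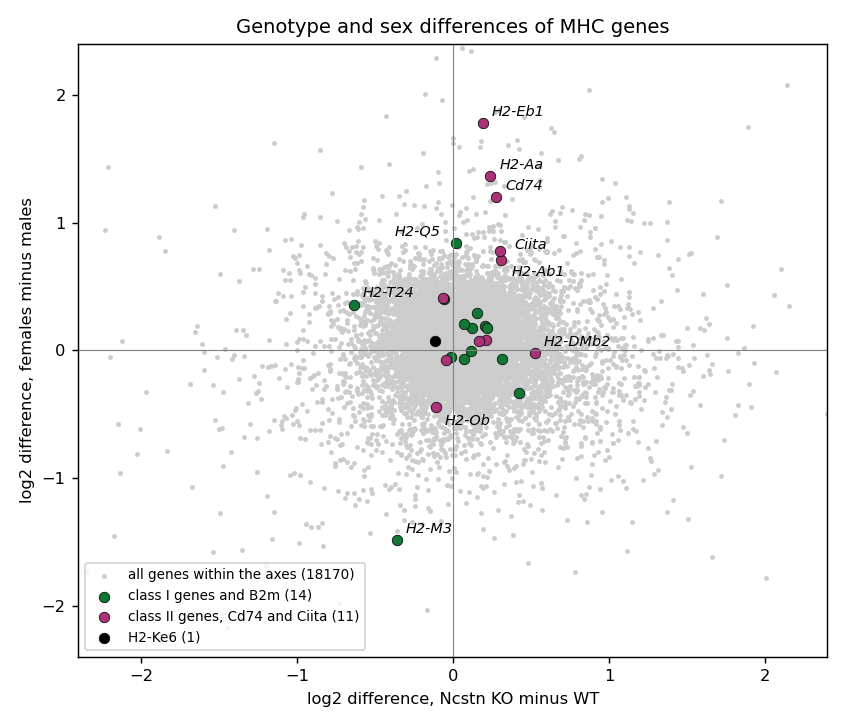
Each point is a gene, with the log2 difference Ncstn KO minus WT on the horizontal and females minus males on the vertical axis; grey points are the 18170 genes within the axis limits of 2.4. H2-Eb1, H2-Aa and Cd74 stand high and H2-M3 low on the sex axis with small genotype differences, while H2-T24 and H2-DMb2 stand out on the genotype axis.

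Set by genotype, the same class II genes gave changes smaller than their spread within a group. The mean of H2-Eb1 was 10.73 ± 0.98 (SD, n = 2) in WT and 10.92 ± 1.54 (SD, n = 2) in Ncstn KO, and its change was 0.19 (SE 0.75, limma adjusted p = 1). H2-Aa had a change of 0.24 (SE 0.57, adjusted p = 0.992), Cd74 of 0.28 (SE 0.49, adjusted p = 0.988), Ciita of 0.30 (SE 0.40, adjusted p = 0.978) and H2-Ab1 of 0.31 (SE 0.32, adjusted p = 0.969). Between the females Ncstn KO was above WT for all 5 in the highest probe set of each, by 0.37 (Cd74) to 0.59 (H2-Eb1). Between the males the same differences were 0.03 for H2-Ab1, 0.06 for H2-Aa, 0.19 for Cd74 and Ciita and -0.21 for H2-Eb1. Because leaving out 1 array leaves a genotype with a single sex, all 5 changes turned with the array removed; H2-Eb1, for example, ran from -0.90 without Ncstn KO replicate 1 to 1.28 without Ncstn KO replicate 2, and was -0.50 without WT replicate 1 and 0.88 without WT replicate 2.

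The nonclassical class II genes did not follow the classical ones. H2-DMb2 and H2-DMa encode the DM protein, which removes the invariant chain fragment and edits the bound peptide. H2-DMb2 read 9.96 on the WT male and 10.25 on the WT female against 10.47 on the Ncstn KO female and 10.79 on the Ncstn KO male. The change was 0.52 (SE 0.18), or 1.44-fold, with separate groups, and did not pass (limma adjusted p = 0.628). The other H2-DMb2 probe sets changed by 0.50 and 0.09, and those shared with H2-DMb1 by 0.39 (SE 0.19) and 0.48 (SE 0.20), each of the last pair with separate groups.

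H2-DMa read 11.67 and 11.78 in WT against 11.91 and 11.86 in Ncstn KO, a change of 0.17 (SE 0.09, adjusted p = 0.857). H2-Oa, a chain of the DO protein that restrains DM, read 10.03 and 10.19 against 10.32 and 10.31, a change of 0.21 (SE 0.14, adjusted p = 0.912). All 3 genes were thus a little higher on both Ncstn KO arrays. H2-Ob, the partner of H2-Oa, read 11.31 on the WT male, 11.21 on the WT female, 10.76 on the Ncstn KO female and 11.55 on the Ncstn KO male, with overlapping genotypes and a change of -0.11 (SE 0.25, adjusted p = 0.991). Females minus males gave 0.08 for H2-DMa and H2-Oa, -0.02 for H2-DMb2 and -0.44 (SE 0.18, adjusted p = 0.574) for H2-Ob, so the last ran against the classical chains.

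In the gene order of the RefSeq table, H2-Ab1, H2-Aa and H2-Eb1 are neighbours among the class II genes, with H2-Oa, H2-DMa, H2-DMb2, H2-DMb1 and H2-Ob on one side and H2-Eb2 and H2-Ea on the other. The 3 neighbours were those with female minus male differences over 0.5 in this row of genes. H2-Ke6, the steroid dehydrogenase gene within the complex, read 11.05 and 11.33 in WT and 11.005 and 11.15 in Ncstn KO, a change of -0.11 (SE 0.14, adjusted p = 0.975).

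Class I was then set against class II on each array, by averaging over a class each gene's log2 intensity minus its own WT mean. Over all 13 class I genes this mean was -0.0007 on the WT male, 0.0007 on the WT female, 0.10 on the Ncstn KO female and -0.003 on the Ncstn KO male. Over the 9 class II genes with H2-Ea it was -0.18, 0.18, 0.41 and -0.10 in the same order. Class I minus class II was therefore 0.18 on the WT male, -0.18 on the WT female, -0.31 on the Ncstn KO female and 0.09 on the Ncstn KO male. Setting each gene against its WT mean makes the 2 WT arrays equal and opposite. That they lie on opposite sides of 0 therefore carries no information, while which of them is higher was measured. Both females were below both males, and the genotypes overlapped.

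By genotype the contrast of class I minus class II changed by -0.11, and by -0.13 between the females and -0.09 between the males. The direction was not stable. With the shared probe sets added the change was 0.05. These include the H2-Bl probe set, whose change of 1.55 rested on the WT male array alone, and the contrast without it was not tested. Leaving out the WT male gave 0.07 and leaving out the Ncstn KO female 0.09. By sex the contrast differed by -0.38, and by -0.36 in WT and -0.40 in Ncstn KO. For the classical genes alone, H2-K1 and H2-D1 against H2-Aa, H2-Ab1 and H2-Eb1, it was 0.53 and 0.64 on the WT and Ncstn KO males and -0.53 and -0.94 on the WT and Ncstn KO females. In the representative probe sets nearly all of this came from class II. There the classical class I mean stayed between -0.03 and 0.10 and the classical class II mean ran from -0.54 to 1.03. The less level H2-D1 probe set is not part of these means. Over the 11 brighter genes of both classes the contrast changed by -0.42 by genotype, with class I at -0.20, where H2-T24 and H2-M3 are 2 of 4 genes, and class II at 0.22. This contrast was 0.41 on the WT male, -0.41 on the WT female, -0.81 on the Ncstn KO female and -0.03 on the Ncstn KO male. No p is given for these means, because the genes were chosen with earlier results in view.

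**Figure D4:**
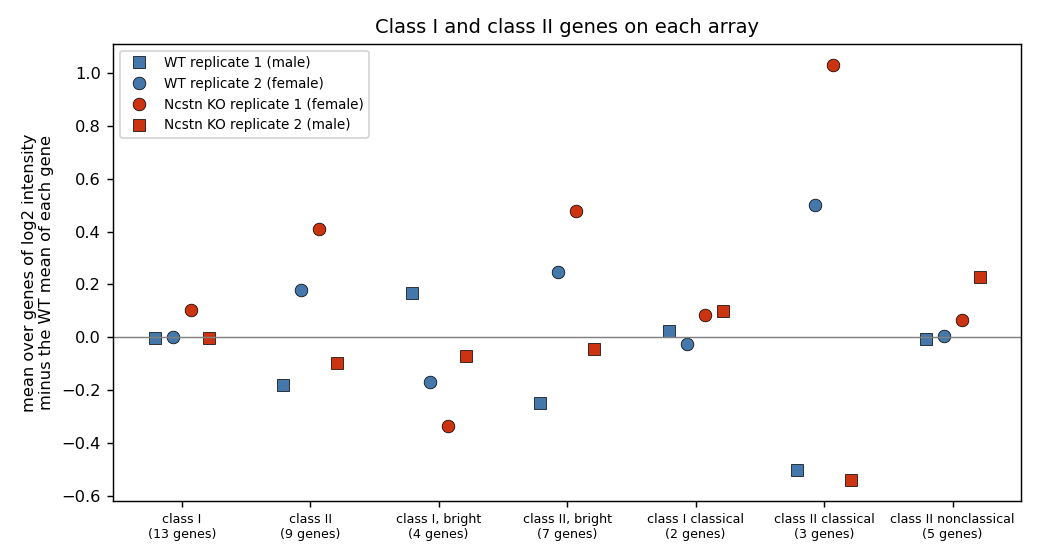
Symbols give, for 7 sets of MHC genes, the mean over the genes of log2 intensity minus the WT mean of each gene on 1 array, with colour for genotype and shape for sex. The classical class II mean separates the females (0.50 and 1.03) from the males (-0.50 and -0.54), whereas the classical class I mean stays between -0.03 and 0.10 on all arrays.

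Genes that load class I molecules showed little change. Of 13 measured, 4 lay above and 9 below WT, 0 had an unadjusted p under 0.05, and their median change was -0.02 against 0.02 over all genes. Tap1 and Tap2, which encode the peptide transporter, changed by 0.19 (SE 0.10) and -0.03 (SE 0.14), and the immunoproteasome genes Psmb8 and Psmb9 by -0.04 (SE 0.09) and -0.07 (SE 0.10). Tapbpl, a tapasin-related peptide editor, had 0.30 (SE 0.16) and Psme3, a proteasome activator subunit, -0.23 (SE 0.13). By sex 11 of the 13 lay above in females and both females were above both males for 7 (53.8%, against 29.0% of all genes), by small amounts such as 0.18 (SE 0.06) for Psmb9, 0.21 (SE 0.07) for Psmb10 and 0.14 (SE 0.06) for Tapbp, the peptide editor tapasin.

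Of 11 measured genes of class II loading and turnover, 8 lay above WT and 3 below, where 10150 of all 18193 genes lay above. Both Ncstn KO arrays were above both WT arrays for 5 (45.5%, against 21.3% of all genes) and below for 2 (18.2%, against 12.8%). The median change was 0.16. At a limma unadjusted p under 0.05, 3 were above WT (against 4.96% of all genes), all lysosomal proteases. Ctsl (0.64, SE 0.12, limma adjusted p = 0.293), Ctss (0.32, SE 0.11, adjusted p = 0.637) and Ctsd (0.28, SE 0.09, adjusted p = 0.595) had separate groups, and none passed. Cathepsins S and L trim the invariant chain. By sex the genes nearest to the classical class II pattern were Marchf1, whose product marks class II for degradation, with 1.10 (SE 0.22, adjusted p = 0.574), and Ifi30, a lysosomal thiol reductase, with 0.55 (SE 0.10, adjusted p = 0.574). Both females were above both males for 4 of the 11 (36.4%, near the 29.0% of all genes). Among them were Marchf1, Ifi30 and Cd86, a costimulatory ligand (0.49, SE 0.22, adjusted p = 0.574). Marchf1 and Cd86 lay below the median gene, at means of 6.62 and 7.92, where a difference carries an unknown error.

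Factors that act on MHC promoters were nearly level. Of 15 measured, 9 lay above and 6 below WT with a median change of 0.02. At a limma unadjusted p under 0.05, 1 was above WT (against 4.96% of all genes). That gene was Irf8 (0.43, SE 0.15, adjusted p = 0.632), a factor of myeloid and dendritic cells. Nlrc5, the class I transactivator, changed by 0.19 (SE 0.11), Rfx5, which binds the X box, by -0.10 (SE 0.13), Irf1 by -0.06 (SE 0.17) and Spi1 by 0.26 (SE 0.15). By sex Nlrc5 differed by -0.02 (SE 0.10) and Rfx5 by -0.20 (SE 0.10), while Irf4 was lower in females by -0.65 (SE 0.17, adjusted p = 0.574) and Crebbp, a coactivator, by -0.20 (SE 0.06, adjusted p = 0.574).

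Interferon-gamma is the main inducer of Ciita outside dendritic and B cells. Of 13 genes of its signalling measured, 9 lay above and 4 below WT with a median change of 0.14. Ifngr1, a receptor chain, changed by 0.45 (SE 0.13, adjusted p = 0.544) and Irf9 by -0.49 (SE 0.14, adjusted p = 0.544), each with separate groups. Ifngr2, the other receptor chain, had 0.72 (SE 0.40, adjusted p = 0.856) with overlapping groups. Cxcl9, a chemokine gene induced by interferon-gamma, read 5.75 on the WT male and 4.97 on the Ncstn KO male against 7.37 on the WT female and 7.93 on the Ncstn KO female, a sex difference of 2.29 (SE 0.38, adjusted p = 0.574). Both females were above both males for 3 of the 13 (23.1%, against 29.0% of all genes), Cxcl9, Cxcl10 (0.44, SE 0.28) and Socs1 (0.25, SE 0.22), the last named after its values were seen. Gbp3 differed by -0.17 (SE 0.10) and Ifngr1 by 0.02 (SE 0.12) between the sexes. Cxcl9, Cxcl10 and Socs1 lay below the median gene, so their differences carry an unknown error.

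Markers of cells that carry class II were read beside these results, and their part in them was not tested. Of 7 measured dendritic cell genes 0 reached the median level of all genes, and their mean log2 level was 5.83 and 5.81 on the WT and Ncstn KO males and 6.32 and 6.37 on the WT and Ncstn KO females. Both females were above both males for 3 of the 7 (42.9%, against 29.0% of all genes), Xcr1 (1.96, SE 0.46), a receptor of cross-presenting dendritic cells, Zbtb46 (1.07, SE 0.26) and Batf3 (0.65, SE 0.24), factors of conventional dendritic cells, each with adjusted p = 0.574. Siglech, a marker of plasmacytoid dendritic cells, differed by -0.06 (SE 0.22) and Ccr7, a homing receptor, by 0.19 (SE 0.29). The remaining genes of this list were Itgax, with 0.05 (SE 0.22), and Cd209a, with -0.18 (SE 0.21). The sexes overlapped for Siglech, Ccr7, Itgax and Cd209a, so the higher list means on the females do not describe every gene. Cd8a, present on some dendritic cells as well as T cells, read 5.21 and 5.58 on the WT and Ncstn KO males and 7.07 and 6.51 on the WT and Ncstn KO females, while Cd3e stayed at 4.55 to 5.14. Of the other T and NK cell genes, Cd3g differed by 0.26 (SE 0.20) and Ncr1 by -0.07 (SE 0.27) between the sexes. Of the 4 T and NK cell genes measured, 0 reached the median level.

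B cell and monocyte genes moved otherwise. The mean level of 7 B cell genes was 6.24 and 6.49 in WT and 6.13 and 6.18 in Ncstn KO, but their median change was 0.0065, with 4 above and 3 below WT. Both Ncstn KO arrays were above both WT arrays for 2 of the 7 (28.6%, near the 21.3% of all genes). These were Pax5 (0.39, SE 0.22) and Cd22 (0.30, SE 0.25), the latter named after its values were seen. Both were below for 1 gene (14.3%, near the 12.8% of all genes). That gene, Ms4a1, was lower in Ncstn KO by -2.12 (SE 0.24, adjusted p = 0.161) and differed by 0.07 (SE 0.22) between the sexes, and Cd79a had -0.46 (SE 0.41) and Cr2 0.51 (SE 0.21) by sex. The mean level of 7 monocyte and macrophage genes was 7.496 and 7.62 in WT against 8.22 in the Ncstn KO female and 8.23 in the Ncstn KO male, with Ccr2 (1.498, SE 0.24, adjusted p = 0.233), Csf1r (0.75, SE 0.16, adjusted p = 0.377) and Cd14 (1.10, SE 0.25, adjusted p = 0.405) above WT. Both Ncstn KO arrays were above both WT arrays for 5 of the 7 (71.4%, against 21.3% of all genes). Both females were above both males for 0 of the 7 (against 29.0% of all genes). Mrc1 (-0.37, SE 0.44) and Cx3cr1 (-0.11, SE 0.26) were the 2 with overlapping genotypes. Itgam, a myeloid marker that the sort removes, was dim and had a change of 1.07 (SE 0.36, adjusted p = 0.628). Of the genes named in this paragraph only Ccr2 and Csf1r reached the median level of all genes. For the rest, Ms4a1 and Cd14 among them, a difference carries an unknown error.

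**Figure D5:**
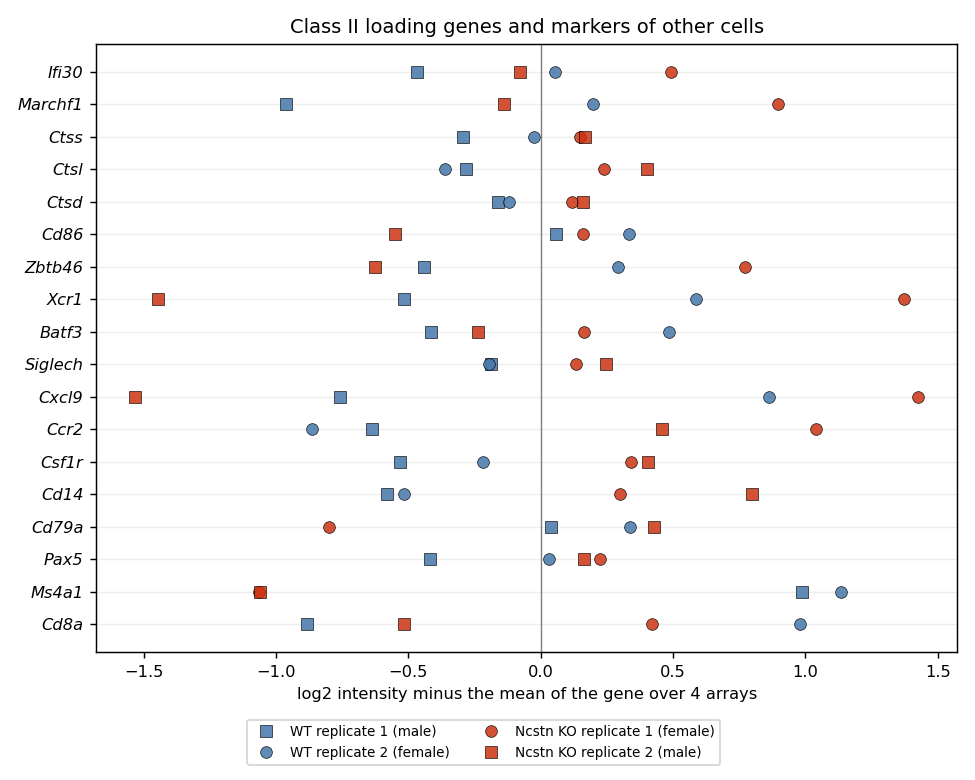
Rows are genes of class II loading, Cxcl9 and markers of dendritic cells, monocytes, B cells and T cells; symbols give log2 intensity minus the mean of that gene over the 4 arrays, with colour for genotype and shape for sex. The females stand to the right for Ifi30, Marchf1, Cd86, Zbtb46, Xcr1, Batf3, Cxcl9 and Cd8a, and the Ncstn KO arrays stand to the right for Ctss, Ctsl, Ctsd, Ccr2, Csf1r and Cd14.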

How the data were processed

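The series matrix holds probe set intensities on a linear scale, deposited by the authors; the submitters' processing notes name RMA, without a version. RNA of 4 mice, 5 ng each, was amplified before labelling per the labels' protocols, which adds noise for rare transcripts. Log2 was taken of all 45101 values per array, and 64 control probe sets were left out. Symbols came from the GEO platform annotation of 2016; all 26 members matched RefSeq by Entrez identifier, with 0 symbols changed. A gene was represented by the probe set naming only it with the highest mean; probe sets naming several genes were kept apart.

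Tests used limma 3.58.1 under R 4.3.3 (lmFit, eBayes with a trend, two-sided, Benjamini-Hochberg over 18193 genes, threshold 0.05), by genotype alone or, for sex, by genotype and sex with 1 residual degree of freedom. In 10 simulations with 200 changed genes each, 26.0% of log2 changes of 1 and 79.1% of changes of 2 were recovered by genotype, and 28.5% and 79.7% by sex, so most differences of the size reported here would be missed; 4.11% and 11.7% of calls were false, so calls by sex exceed the nominal rate. The members, lists and tests were chosen with earlier results of these data known. Every member is accounted for, brighter ones with each array's value. List genes are named if fixed by name or among the 3 smallest p by genotype or sex. The dendritic cell list is given in full. H2-Ke6 is counted in no class. Listed genes not named in the annotation used were not analysed here. Figures were drawn with matplotlib 3.10.9.

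Same-numbered replicates were not said to be paired; the sexes are crossed over the numbers. The alternatives were other scalings, a filter on dim genes, the mean of a gene's probe sets, sex or replicate number as a term, other class members and leaving out each array.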

Additional observations from a re-analysis of the deposited data

Results flagged for a closer look

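Cxcl9 and Xcr1, already described for their sex difference, had genotype changes of opposite sign in the sexes, each of at least 0.5 on the log2 scale. Cxcl9 was higher in Ncstn KO than in WT by 0.56 between the females, while between the males the value was -0.78. For Xcr1 the same values were 0.79 between the females and -0.93 between the males. Each value sets 1 mouse against 1 mouse, and the difference between the sexes was not tested.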

How the results depend on the processing

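The count of 0 genes called by genotype (902 higher and 335 lower at an unadjusted p under 0.05) became 62 after centring each array on its median, 3 after repeated quantile normalization, 2 among genes at or above the median level, and 0 to 27 when an array was left out. The replicate block, sex as a term and the crossed replicate block, which is the same fit, called 0, as did the fit over all probe sets. The correlation of deviations from the group mean was -0.242 for the same number and 0.242 for the same sex. With 2 arrays per group the deviations within a group are equal and opposite, so these values must mirror each other. They cannot decide whether the numbers pair the mice. By sex the count of 4 became 58 after centring and 2 among genes at or above the median level.

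Scaling to the hybridization controls, which were brighter in Ncstn KO by 0.20, moved the median of all genes by -0.20 and lowered all changes: the members' median became -0.058, the class I mean -0.15, the class II mean -0.038, and the list medians -0.22 for class I loading (already below 0), -0.033 for class II loading, -0.17 for promoter factors and -0.058 for interferon-gamma signalling. It turned H2-D1 (-0.080), H2-K1 (-0.13), H2-DMa (-0.030) and H2-Eb1 (-0.0052), 4 genes that stayed above the median gene (-0.17 there). Among brighter genes the class I mean was -0.20, class I minus class II -0.42 by genotype and -0.81 by sex. With shared probe sets added the class I mean was 0.24 and class I minus class II turned to 0.05. Both values include the H2-Bl probe set, whose change rested on the WT male array alone.

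When an array was left out, the members' count of 2-fold changes ran from 0 to 3, the class I mean from -0.003 to 0.10, the class II mean from -0.10 to 0.41, class I minus class II from -0.31 to 0.09, and the medians from 0.0062 to 0.24 for members, -0.0021 to 0.11 for promoter factors, 0.09 to 0.30 for class II loading, -0.09 to 0.03 for class I loading and 0.0041 to 0.24 for interferon-gamma signalling. Changes that turned were B2m (-0.050 to 0.022), Cd74 (-0.37 to 0.92), H2-Aa (-0.53 to 1.01), H2-Ab1 (-0.18 to 0.80), H2-Eb1 (-0.90 to 1.28), H2-Ke6 (-0.26 to 0.032), H2-M3 (-1.11 to 0.39), H2-Ob (-0.50 to 0.28) and Ciita (-0.15 to 0.74); each such fit leaves 1 genotype with a single sex. The classical class II difference by sex, 1.28, was 1.0003 within WT and 1.57 within Ncstn KO, which are also its values without an array, and the count of members 2-fold different by sex ran from 4 to 6. Causes were not tested, and the number of arrays limits precision throughout.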
